A study of Mus musculus with 17 samples.

Results

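The comparison set 3 pools of mouse brain RNA taken after ischemia and treatment with AEOL 10150 (treated ischemic pools) against 3 pools taken after ischemia without the drug (untreated ischemic pools). These 6 arrays were chosen by their sample titles, out of 17 arrays in all, and each carried RNA pooled from 6 brains. AEOL 10150 is a catalytic antioxidant, that is, a small molecule that breaks down superoxide and related oxidants. Ischemia was 1 h of lost blood flow in the territory of the middle cerebral artery, and white and grey matter of that territory was taken 6 h after flow had returned. The treated mice were given the drug intravenously after the ischemia. The other pooled arrays were 3 pools given the drug without ischemia (drug control pools) and 3 pools given saline without ischemia (control pools), both taken 6 h after the injection, and 5 arrays each carried 1 treated ischemic brain. Dose, strain, sex and age, and what if anything the untreated ischemic mice were injected with, were not given in the sources used here. Nothing says that the pools of a group came from separate experiments, so the p values measure only the spread between these pools.

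Oxidants formed when blood flow returns to ischemic brain damage lipids, proteins and DNA and also act as signals. They can activate NF-kB and AP-1, transcription factors that switch on cytokines, chemokines and adhesion molecules, through which blood leukocytes are drawn into the tissue. In the same hours neurons and glia switch on immediate early genes and heat shock proteins, and Nrf2 drives genes for antioxidant enzymes. The comparison asks which of these gene classes differed between ischemic brain with and without the drug, and in which direction each treated pool lay.

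Values are log2 intensities of a probe set, a group of short DNA probes for 1 transcript, after every array was brought to 1 trimmed mean. Intensities below 109.5 were set to that floor, which is 6.77 on the log2 scale. Differences are the mean of the treated minus the mean of the untreated ischemic pools on the log2 scale, so that -1 is a halving. The tissue carried markers of its labels, and markers of other regions too. Snap25 of neurons lay between 16.15 and 16.29 in treated and between 16.24 and 16.30 in untreated pools, and Mbp of oligodendrocytes between 15.86 and 16.08 in treated and between 15.79 and 16.03 in untreated pools. Drd2 of the striatum and Neurod2 of the cortex were above the floor in all 6 pools. Of the markers of other cells, Cd3g of T cells was at the floor in all 6 pools. Cd79b of B cells exceeded it in 2 treated pools and 1 untreated pool. S100a8 of neutrophils lay between 8.44 and 9.12 in treated and between 8.94 and 9.63 in untreated pools. The red cell globin Hba-a1 lay between 11.58 and 13.12 in treated and between 12.95 and 13.41 in untreated pools. Ttr of the choroid plexus lay between 12.62 and 13.21 in treated and between 12.75 and 13.22 in untreated pools. Oxt of the hypothalamus lay between 10.33 and 11.90 in treated pools and between the floor and 12.39 in untreated pools. Avp of the hypothalamus and Col1a1 of the meninges exceeded the floor in at least 2 pools of each group.

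The treated pools were not alike in their labels or as arrays. Pool 1 is titled as treated, but its description names no drug. Pool 2 carries the replicate number 1 in its description. Treated pools 2 and 3 were deposited on another intensity scale than treated pool 1 and all untreated pools, with trimmed means of 140.7 and 187.4 against 2500. Treated pool 3 also stood apart in its profile. Its correlation with the 5 single treated brains across probe sets was 0.965 to 0.973, about as high as that of the single brains with each other (0.961 to 0.972), whereas the other 11 pooled arrays had 0.880 to 0.956 with the single brains. Its correlations with the other pools were 0.902 to 0.952. Treated pool 2 was closest to untreated pool 2 (0.962), and most other pools were also closest to a pool with the same replicate number. The reported fit took no account of that number. As a measure of RNA integrity, the signal of the actin control at its 3' end over that at its 5' end was 1.68, 1.29 and 1.34 in treated pools 1 to 3 and 1.70, 1.53 and 1.17 in untreated pools 1 to 3. The part of the profile of treated pool 3 in the differences that follow was not tested. Values without a pool stand beside some of the list medians and calls that they change. Of the 35 lists 10 kept the sign of their median in every setting of the processing, so a list without such a value is not thereby stable.

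**Figure D1:**
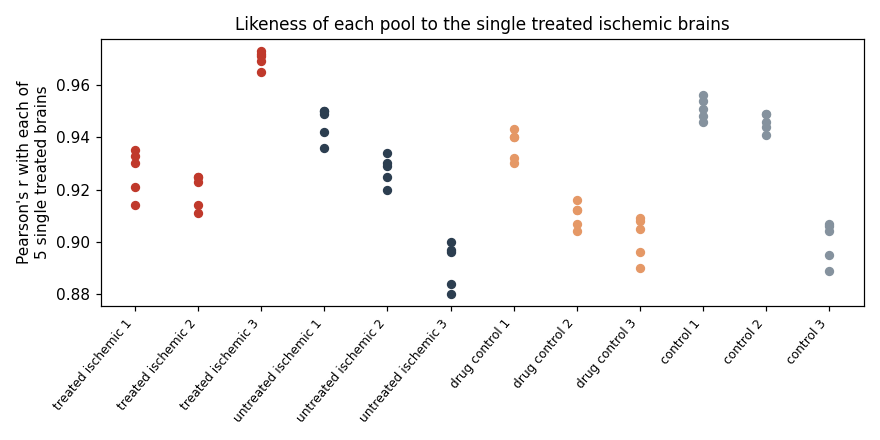
Likeness of the 12 pooled arrays to the single treated brains. Each point is Pearson's r across probe sets (y axis) between 1 pool (x axis) and 1 of the 5 single treated ischemic brains. Treated ischemic pool 3 has 0.965 to 0.973, above every other pool.

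Aldh1a3, a retinaldehyde dehydrogenase that makes retinoic acid, was the 1 transcript that passed the test between treated and untreated ischemic pools. Its signal was at the floor of 6.77 in all 3 treated pools and was 8.34, 8.75 and 8.42 in untreated pools 1 to 3. The groups did not overlap, and the treated pools were at least 3.31-fold lower (log2 difference -1.73, SE 0.16, adjusted p = 0.00641 in limma). Aldh1a3 was also at the floor in all 3 drug control and all 3 control pools, so only the untreated ischemic pools had a measured level, and it entered the test through them. A group with every pool at the floor has no spread, which lowers the SE and the p. In 2 of the 5 single treated brains it exceeded the floor, at 8.21 in brain 12 and 6.95 in brain 11. The call did not hold without any 1 treated pool (adjusted p = 0.0515 to 0.0682), and without any 1 untreated pool Aldh1a3 no longer passed the filter on low values. It was also lost with the intensity scale as a block (adjusted p = 0.152 in limma), with only the 2 groups fitted (0.276) and with groups from the descriptions, where the adjusted p was 1.

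Across all 10259 probe sets tested, 0 were higher and 1 was lower at an adjusted p under 0.05 (0.0% and 0.00975%), and 151 had an unadjusted p under 0.05 (1.47%), 71 of them higher (0.692%) and 80 lower (0.78%). The values of the 2 groups did not overlap in 175 probe sets that were higher (1.71%) and 212 that were lower (2.07%) with the drug. No exact permutation test was made per gene, since 3 pools set against 3 allow no p below 0.1. The median log2 difference was -0.0151, and the 5th and 95th percentiles were -0.62 and 0.58. The median 95% interval of a difference was ± 0.78. For the 6060 probe sets brighter than 8 times the floor it was ± 0.60, and 83.2% of these had an interval narrower than ± 1. For most bright transcripts the interval was thus narrower than a doubling or halving on either side of the estimate.

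After Aldh1a3, the 4 next smallest p values of named genes, a choice made after their values were seen, belonged to transcripts near the floor. Ccna2, the cyclin of S phase and mitosis, had the floor value in each of the 3 treated pools and 8.92, 9.23 and 8.49 in untreated pools (log2 difference -2.11, SE 0.32, adjusted p = 0.297 in limma). Cyct, a testis form of cytochrome c, showed the opposite pattern, with 7.22, 7.84 and 7.67 in treated pools and the floor in all untreated pools. Crygd, a lens crystallin whose probes may not separate it from its relatives, was at 6.77, 7.26 and 6.77 in treated pools and more than 1 log2 unit above that in each untreated pool (log2 difference -2.16). Nabp1, a single-stranded DNA-binding protein, was at 7.26, 6.77 and 7.18 in treated and 7.72, 8.12 and 7.96 in untreated pools. Apart from Ccna2, these had an adjusted p of 1, and in each at least 1 pool lay at the floor, so that their differences depend on where the floor was set.

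Among transcripts above the floor in all 6 pools, the largest differences without overlap between the groups were ranked in each direction, from 27 higher and 20 lower candidates with an unadjusted p under 0.05. Since the ranking used this contrast, the 12 named on each side are a description, and each had an adjusted p of 1 in limma. On the higher side the differences ran from 1.00 to 1.45. Dyrk1b, a protein kinase linked to quiescence, had 9.99, 9.49 and 9.21 in treated and 8.93, 7.92 and 7.50 in untreated pools. Sp100, an interferon-inducible component of nuclear bodies, had 9.26, 9.43 and 8.84 in treated and 7.31, 7.83 and 8.71 in untreated pools. Cd37, a tetraspanin of leukocytes and chiefly of B cells, had 9.85, 9.50 and 9.60 in treated and 9.07, 8.65 and 7.86 in untreated pools. The lowest value was that of untreated pool 3 for Dyrk1b and Cd37 and of untreated pool 1 for Sp100. The nearest pools of the 2 groups lay under 0.3 apart for Dyrk1b and Sp100, and the other probe set of Sp100 differed by 0.21.

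Nkiras2, a Ras-like protein that restrains NF-kB by binding its inhibitor, had 10.07, 10.46 and 10.18 in treated and 9.73, 9.15 and 8.56 in untreated pools. Creb1, the transcription factor that responds to cyclic AMP, had 8.17, 8.54 and 8.62 in treated and 7.37, 7.07 and 7.67 in untreated pools, but its other probe set differed by -0.13. Acan, the core protein of perineuronal nets, had 9.56, 9.61 and 9.04 in treated and 7.83, 8.80 and 8.59 in untreated pools. Treated pools were thus uniformly above the untreated ones in these 3, though by under 0.5 between the nearest pools for Nkiras2 and Acan. The others on this side were Serpina1b, an alpha-1 antitrypsin whose probes may not separate the members of its gene family (1.34), C77080 (1.34, with -0.13 at its other probe set), the ARF regulator Arfgap3 (1.18), the mitotic phosphatase Cdc25c (1.07), the mitochondrial ribosomal protein Mrps5 (1.05) and the zinc finger protein Zfp28 (1.01). The single treated brains lay below the treated pools for Nkiras2 (7.55 to 9.27) and Serpina1b (6.77 to 7.41). They did not for C77080 (10.75 to 11.16) and Arfgap3 (10.65 to 11.29).

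On the lower side the differences ran from -2.11 to -0.71. The largest was that of Plcb1, a phospholipase C of receptor signalling, with 11.81, 7.78 and 12.11 in treated and 12.46, 12.47 and 13.11 in untreated pools. Treated pool 2 alone made most of that difference, and the other 2 probe sets of Plcb1 differed by -0.24 and -0.41. Lipa, the lysosomal acid lipase, had 7.05, 8.06 and 7.75 in treated and 9.36, 9.23 and 9.89 in untreated pools, and here each treated pool was more than 1 log2 unit below every untreated one. The single treated brains did not share that level, with 9.16 to 10.29 and a median of 9.69. Abcd2, a peroxisomal transporter of very long-chain fatty acids, had 8.28, 8.62 and 9.17 in treated and 9.43, 9.99 and 9.90 in untreated pools (log2 difference -1.08, SE 0.31), the smallest unadjusted p of the 24.

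Xiap, an inhibitor of caspases, had 7.53, 7.44 and 7.16 in treated and 8.54, 8.10 and 8.85 in untreated pools at this probe set, and differences of 0.10 and -0.19 at its 2 others. Laptm5, a lysosomal protein of blood cells and microglia, had 10.62, 11.07 and 10.35 in treated and 11.51, 11.46 and 11.42 in untreated pools, with -0.09 at its other probe set. Wwtr1, also called TAZ, a coactivator of the Hippo pathway, had 9.56, 9.84 and 8.94 in treated and 10.14, 10.20 and 10.21 in untreated pools. In Laptm5 and Wwtr1 the untreated pools lay within 0.1 of each other and the treated pools spread over more than 0.7. The others were the kinase Stk11 (-1.34), the ribonucleotide reductase subunit Rrm2 (-1.23), Pacrgl (-0.80, with 0.40 at its other probe set), the aryl hydrocarbon receptor Ahr (-0.79), the Golgi protein Golim4 (-0.78) and Mak16, a ribosome assembly factor known from yeast (-0.71). All 24 kept their sign in each of the 17 other settings of the processing. Leaving out a pool could not change the sign, since the genes were chosen for groups without overlap.

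**Figure D2:**
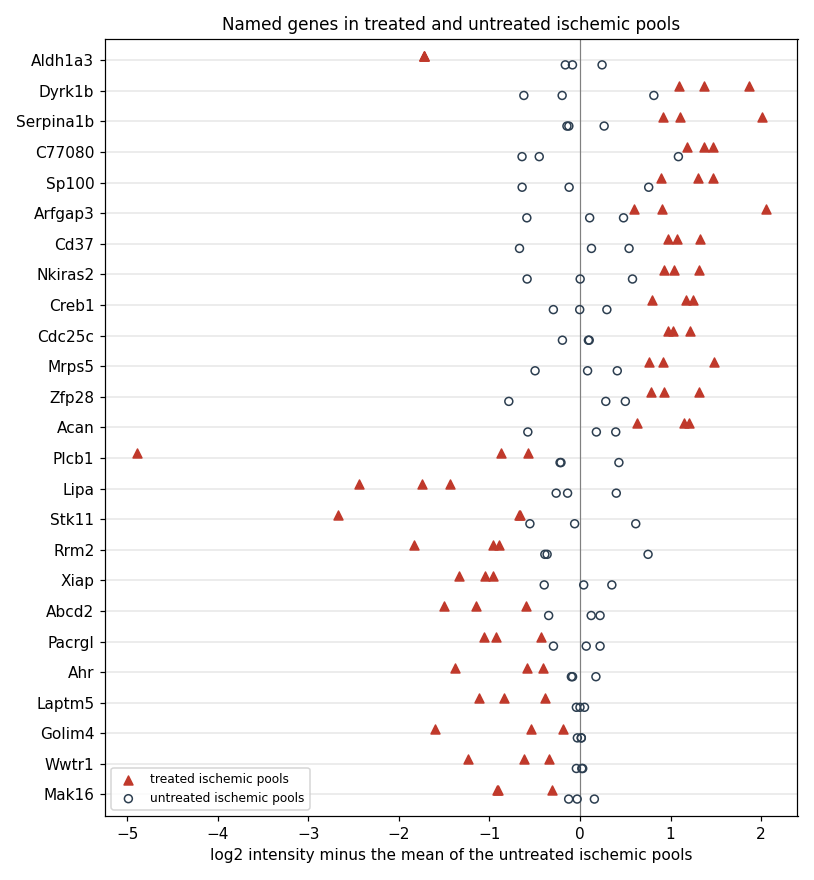
Aldh1a3 and the 24 named genes in the 6 ischemic pools. The x axis is the log2 intensity of a pool minus the mean of the untreated ischemic pools, triangles are treated pools and circles are untreated pools. The groups do not overlap in any row, since that chose the 24 genes, and Plcb1 rests on 1 treated pool.

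Gene classes were read from 35 lists, with the brightest probe set of each gene. They held 817 of the 7280 genes measured and are described by counts and medians with no test. Of all genes, 51.0% had a difference below 0 and 48.8% one above 0, and the median difference was -0.0057. All 3 treated pools lay below the untreated mean in 894 genes (12.3%) and above it in 937 (12.9%). The groups did not overlap in 145 genes that were lower (1.99%) and 130 that were higher (1.79%), and an unadjusted p under 0.05 came with 47 genes that were lower (0.646%) and 54 that were higher (0.742%). No member of 34 lists passed the test, and the exception was Aldh1a3. List medians ran from -0.28 to 0.15, and 26 of the 35 lay within 0.1 of 0.

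The cytokines and chemokines had the lowest median of all lists, -0.28 over 22 genes measured, with 13 lower and 9 higher. All 3 treated pools lay below the untreated mean in 8 of the 22 (36.4%) and above it in 2. The median of the list relative to the untreated mean was -0.04, -0.23 and -0.30 in treated pools 1 to 3 and -0.08, 0.02 and -0.03 in untreated pools 1 to 3. The groups thus overlapped, with treated pool 1 among the untreated pools. The median was -0.09 without treated pool 2, -0.13 without untreated pool 3 and -0.04 with the intensity scale as a block, where treated pool 1 alone stands for its group.

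The 2 members with an unadjusted p under 0.05 were both chosen by that p and both lower. Cxcl2, a chemokine that attracts neutrophils, was at the floor in treated pool 1 and had 9.14 and 8.66 in treated pools 2 and 3, against 8.88, 9.96 and 9.61 in untreated pools (log2 difference -1.29, SE 0.52, adjusted p of 1 in limma). Il6, a cytokine of the acute phase, had 8.40 and 8.26 in treated pools 1 and 2 and the floor in treated pool 3, against 9.91, 9.20 and 7.84 in untreated pools (log2 difference -1.18, SE 0.52, adjusted p of 1). In each of them a single treated pool at the floor, and not the same one, carried a large part of the difference, and the groups overlapped.

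Cxcl1, a close relative of Cxcl2, had 11.18, 11.67 and 10.61 in treated and 11.76, 12.33 and 11.66 in untreated pools, where only treated pool 2 reached the range of the untreated pools (log2 difference -0.77, 95% interval -2.28 to 0.75). Ccl2, which attracts monocytes, had 10.99, 11.26 and 11.18 in treated and 11.83, 12.38 and 10.81 in untreated pools, so untreated pool 3 lay below all treated pools. Its neighbour in function Ccl7 had 8.32, 8.58 and 8.39 in treated and 9.45, 9.42 and 7.72 in untreated pools, with untreated pool 3 again the lowest. Ccl3, a macrophage chemokine, did not follow them, with 11.55, 11.73 and 11.39 in treated and 11.45, 11.38 and 11.84 in untreated pools (log2 difference 0.00, 95% interval -0.66 to 0.67). Csf3, the granulocyte growth factor, had 11.97 and 11.19 in treated pools 1 and 2 but 8.51 in treated pool 3, against 10.94 to 11.61 in untreated pools.

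Cxcl1, Cxcl2 and Il6 are known targets of NF-kB, and the stretch before their start sites is shown to let the reader see the kappaB element beside these values. The sequences are 130 bases that end just before the start of the gene, from RefSeq, build GRCm38.p6, plus strand of chromosome 5, written 5′ to 3′. Capitals mark the match to the kappaB letters, that is GGGA, then any base, then TTTCC, which begins 71 bases before the start of Cxcl1, 97 before that of Cxcl2 and 44 before that of Il6.
Cxcl1, chr5:90891115-90891244: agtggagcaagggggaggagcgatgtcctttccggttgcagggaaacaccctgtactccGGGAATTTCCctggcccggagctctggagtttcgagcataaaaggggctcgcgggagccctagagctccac
Cxcl2, chr5:90903769-90903898: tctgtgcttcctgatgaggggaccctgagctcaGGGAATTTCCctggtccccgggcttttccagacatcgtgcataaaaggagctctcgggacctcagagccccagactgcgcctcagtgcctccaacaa
Il6, chr5:30012984-30013113: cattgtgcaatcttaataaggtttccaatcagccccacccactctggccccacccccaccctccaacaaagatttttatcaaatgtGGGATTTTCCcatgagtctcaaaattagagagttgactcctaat
Cxcl1 and Cxcl2 carry the same 10 letters, and Il6 differs within the element.

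The kappaB letters, searched on both strands from 250 bases before to 50 after the start, were found in 0.411% of 32851 RefSeq promoters of that length. Among 5828 measured genes with a promoter entry 33 held them, 18 lower and 15 higher, with a median log2 difference of -0.03, and all 3 treated pools lay below the untreated mean in 4 of the 33 (12.1%, against 12.3% of all genes). Of the 16 cytokines and chemokines with a promoter entry, 4 held it, namely Csf1, Cxcl1, Cxcl2 and Il6, and Csf1 had a difference of 0.16 (95% interval -0.49 to 0.81). The AP-1 letters TGANTCA were in 7.81% of promoters and in 420 measured genes, with a median difference of 0.01. The antioxidant response letters TGACNNNGC were in 12.4% and in 973 measured genes, with a median of -0.01. The cyclic AMP response letters TGACGTCA were in 1.79% and in 193 measured genes, with a median of -0.01. All 4 medians lay within 0.05 of that of all genes. A match of letters is a description and not a binding site.

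**Figure D3:**
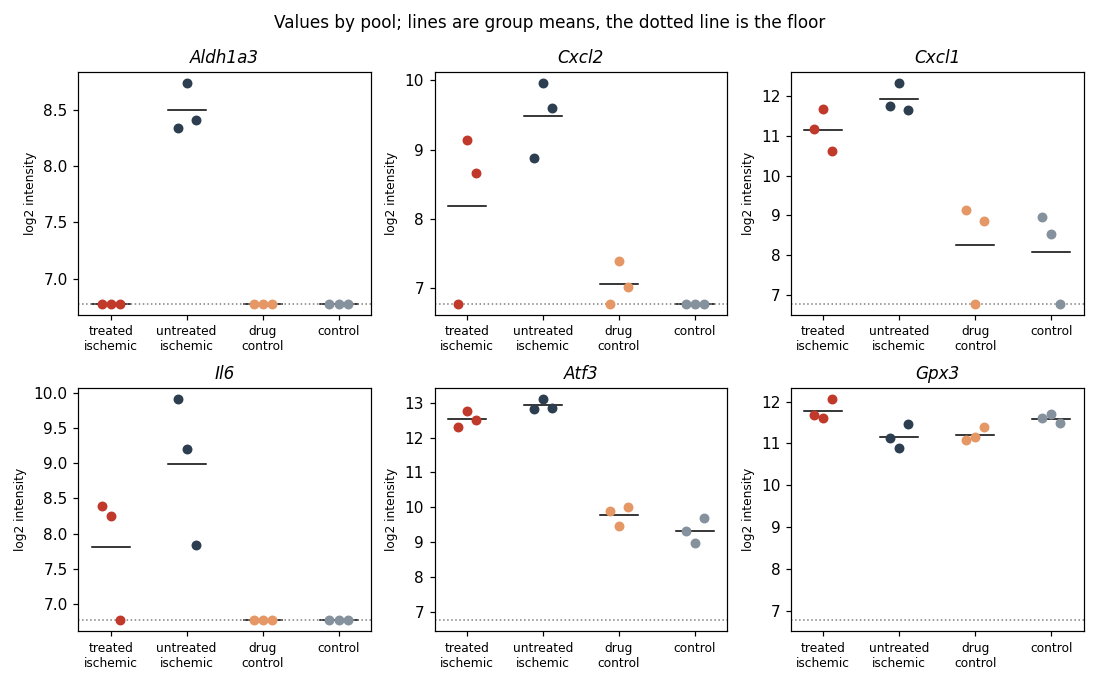
Log2 intensity (y axis) of 6 genes in each of the 12 pools, by group (x axis). Points are pools, lines are group means and the dotted line is the floor of 6.77. Aldh1a3 is above the floor in untreated ischemic pools alone, and 1 treated pool each of Cxcl2 and Il6 lies at the floor.

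Of 25 genes of endothelial adhesion and coagulation 19 were lower, with a median of -0.13. This was 1 of 4 lists, out of 35, whose levels did not overlap between the groups. Order alone parts 3 values from 3 others with a probability of 0.1, so the count by itself does not set these 4 lists apart. The endothelial list stood at -0.09, -0.21 and -0.19 in treated pools 1 to 3 and at 0.03, 0.06 and 0.04 in untreated pools. All 3 treated pools were below the untreated mean in 7 of 25. Itgb2, the beta chain of leukocyte integrins and so a gene of blood cells and microglia rather than of endothelium, had 6.77, 8.27 and 7.47 in treated and 8.50, 8.91 and 9.13 in untreated pools (log2 difference -1.34, SE 0.40, adjusted p of 1 in limma). Icam1, the endothelial ligand of those integrins, had 9.67, 9.18 and 9.25 in treated and 10.30, 9.55 and 9.52 in untreated pools (log2 difference -0.42, 95% interval -1.39 to 0.55). Vwf, the von Willebrand factor of endothelium, had 9.59, 9.40 and 9.18 in treated and 10.11, 9.86 and 9.29 in untreated pools. Other endothelial markers were higher. Cdh5, the cadherin of endothelial junctions, had 11.93, 11.53 and 11.98 in treated and 11.66, 11.96 and 10.82 in untreated pools. Differences were also above 0 for the receptor Tie1 (0.24), the tight junction claudin Cldn5 (0.20) and the TGF-beta coreceptor Eng (0.06). Itgb2 was the 1 member of the list whose groups did not overlap, while those of Icam1, Vwf and Cdh5 did. Treated pool 1 was at the floor for Itgb2, and the single treated brains had 7.93 to 9.10, with a median of 8.74. The median of the list stayed below 0 in every setting, between -0.18 and -0.07.

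NF-kB genes showed no common direction. Of 17 subunits, regulators and targets 11 were lower (median -0.06), with 4 below and 3 above the untreated mean in all 3 treated pools. The list stood at -0.17, -0.03 and -0.07 in treated and at -0.10, 0.09 and -0.16 in untreated pools. Nfkbiz, a nuclear regulator of NF-kB, lay between 9.58 and 10.43 in treated and between 10.37 and 10.52 in untreated pools. Tnfaip6, a hyaluronan-binding protein made in inflammation, lay between 8.76 and 9.89 in treated and between 9.70 and 10.07 in untreated pools. Nfkbia, the inhibitor that NF-kB induces for its own shut-off, differed by -0.06 (95% interval -0.71 to 0.59). Nfkb2, the subunit of the noncanonical pathway, had 8.04, 8.53 and 8.06 in treated pools and 8.35 in untreated pool 2, with untreated pools 1 and 3 at the floor. Rela, the main activating subunit, had 13.30, 13.02 and 13.07 in treated and 12.78, 12.68 and 13.18 in untreated pools. Both thus lay above the untreated mean in every treated pool, with overlap between the groups. The list of prostaglandins and matrix remodelling had a median of -0.11 over 18 genes, and of 0.00 without untreated pool 3. Ptgs2, the inducible cyclooxygenase, had 10.58, 10.35 and 9.69 in treated and 11.13, 10.86 and 10.25 in untreated pools (log2 difference -0.54, 95% interval -1.46 to 0.38). For Ptgs2 the 2 groups overlapped only because untreated pool 3 was low.

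The receptors and feedback genes of cytokine signalling stood on the other side, with 15 of 22 higher and a median of 0.10; the list was at 0.17, 0.00 and 0.03 in treated and at -0.12, -0.01 and 0.26 in untreated pools, and its median was below 0 (-0.02) under the lowest of the other settings. Il4ra, the receptor chain for interleukins 4 and 13, had 10.26, 9.85 and 10.96 in treated and 9.66, 9.15 and 9.73 in untreated pools, without overlap (log2 difference 0.84, SE 0.41, adjusted p of 1 in limma). Socs3, a feedback inhibitor of cytokine signalling, differed by 0.01 (95% interval -0.82 to 0.84). Stat3, which acts downstream of Il6, had 12.58, 12.71 and 12.66 in treated and 11.88, 12.42 and 12.78 in untreated pools.

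Interferon response genes had the highest median of all lists, 0.15 over 35 genes, with 22 higher and 13 lower. All 3 treated pools lay above the untreated mean in 14 of 35, against 12.9% of all genes. The list stood at 0.29, 0.17 and 0.08 in treated pools 1 to 3 and at 0.12, 0.16 and -0.28 in untreated pools 1 to 3, so untreated pool 3 was low and the other 2 lay within the treated range. Pool 3 was also the lowest of the control pools (-0.16, -0.19 and -0.34) and of the drug control pools (0.12, -0.14 and -0.34). Without untreated pool 3 the median was 0.01. Ifit3, an interferon-induced antiviral protein, showed this shape, with 12.00, 11.25 and 11.86 in treated and 11.69, 11.20 and 10.11 in untreated pools. Isg15, the ubiquitin-like interferon product, had 10.16, 10.59 and 10.04 in treated and 10.26, 10.83 and the floor of 6.77 in untreated pools. Apart from Sp100, the member without overlap was Isg20, an interferon-induced exonuclease, with 9.66, 10.28 and 10.38 in treated and 9.21, 9.62 and 8.91 in untreated pools (log2 difference 0.86, SE 0.31, adjusted p of 1 in limma).

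Markers of blood leukocytes varied between pools in opposite order in the 2 groups. The lymphocyte list (15 genes) stood at 0.16, -0.03 and -0.71 in treated and at -0.33, -0.06 and 0.49 in untreated pools, and the neutrophil list (16 genes) at 0.24, -0.04 and -0.44 in treated and at -0.25, -0.14 and 0.31 in untreated pools. Treated pool 3 was the lowest and untreated pool 3 the highest in both. Pool 3 was also the highest among the pools without ischemia. There the lymphocyte list stood at -0.57, -0.92 and 0.27 in control and at -0.24, -0.09 and 0.26 in drug control pools. The neutrophil list stood at -0.72, -1.04 and -0.009 in control and at -0.66, -0.32 and -0.005 in drug control pools. A high pool 3 was thus not particular to the untreated ischemic pools. The lymphocyte median was -0.18 with all pools and 0.05 without untreated pool 3. In the single treated brains the lymphocyte list lay between -0.81 and -0.56 and the neutrophil list between -0.78 and -0.37, on the side of treated pool 3. In bulk RNA, fewer cells of a type and less RNA per cell cannot be told apart. Of the defining markers, S100a8 had 8.44, 8.88 and 9.12 in treated and 9.54, 9.63 and 8.94 in untreated pools (log2 difference -0.56, 95% interval -1.27 to 0.15). Lcn2, a neutrophil granule protein that reactive astrocytes also make, had 12.47, 12.76 and 12.16 in treated and 12.50, 12.47 and 11.75 in untreated pools.

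Resident microglia showed no common direction, with 12 of 21 genes of microglia and complement higher, a median of 0.06 and no gene below the untreated mean in all 3 treated pools. Cd14, the coreceptor for bacterial lipopolysaccharide, differed by 0.00 (95% interval -0.55 to 0.54), and the cathepsin Ctsd by 0.22 (-0.18 to 0.61). The red cell list was at -0.26, -0.01 and -0.33 in treated and at -0.04, 0.08 and -0.17 in untreated pools. This list had a median of -0.11 over 8 genes, which ran from -0.26 to 0.02 over the settings. Its leading gene Hba-a1 had 13.00, 13.12 and 11.58 in treated and 13.41, 13.34 and 12.95 in untreated pools, with treated pool 3 the lowest. The part of blood left in the tissue in the leukocyte values was not tested.

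**Figure D4:**
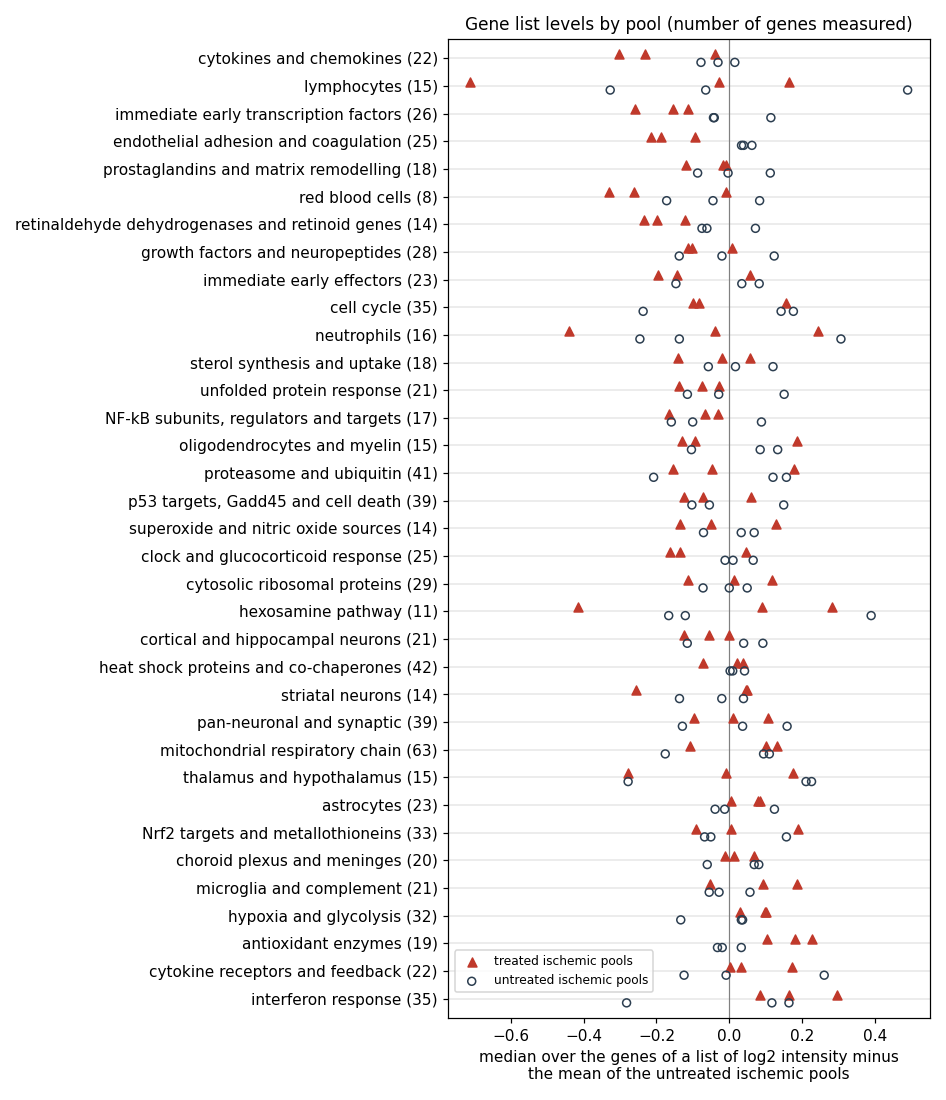
Levels of the 35 gene lists in the 6 ischemic pools. The x axis is the median over the genes of a list of the log2 intensity minus the mean of the untreated ischemic pools, triangles are treated pools and circles are untreated pools, and the number of genes measured stands beside each list. Lists are ordered by their median difference, and groups do not overlap in 4 of the 35 lists: immediate early transcription factors, endothelial adhesion and coagulation, retinaldehyde dehydrogenases and retinoid genes, and antioxidant enzymes. Order alone parts 3 values from 3 others with a probability of 0.1 per list.

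Of 26 immediate early transcription factors 21 were lower. The median was -0.17, with levels of -0.11, -0.15 and -0.26 in treated and -0.04, -0.04 and 0.11 in untreated pools. All 3 treated pools lay below the untreated mean in 8 of 26 (30.8%). Atf3, a stress-induced transcription factor whose probe set may also read related transcripts, had 12.31, 12.76 and 12.50 in treated and 12.83, 13.10 and 12.84 in untreated pools, the 1 member whose groups did not overlap (log2 difference -0.40, SE 0.24, adjusted p of 1 in limma). Fos, the AP-1 subunit, had 14.74, 15.28 and 14.61 in treated and 15.40, 15.42 and 15.15 in untreated pools. Egr1, a zinc finger factor induced by activity, had 14.83, 14.69 and 14.69 in treated and 14.80, 14.73 and 14.99 in untreated pools. The groups overlapped for both, and the 95% intervals of the difference were -1.32 to 0.43 for Fos and -0.55 to 0.34 for Egr1. The median of the list stayed below 0 in every setting, between -0.26 and -0.11.

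Immediate early effectors had a smaller median, -0.09 over 23 genes, and overlapped between the groups. Homer1, a scaffold of synaptic glutamate receptors, had 9.61, 9.50 and 8.96 in treated and 9.93, 10.04 and 9.71 in untreated pools, without overlap (log2 difference -0.54, SE 0.30, adjusted p of 1 in limma). Dusp1, a phosphatase that turns off stress kinases, had 13.33, 13.64 and 13.29 in treated and 13.66, 13.57 and 13.93 in untreated pools. Among growth factors and neuropeptides (median -0.09 over 28 genes), Hgf, the hepatocyte growth factor, had the floor value in each treated pool and 7.45, 7.33 and 8.08 in untreated pools. In the unfolded protein response 14 of 21 were lower (median -0.06). Hspa5, the chaperone of the endoplasmic reticulum, had 14.10, 14.15 and 14.10 in treated and 14.53, 14.33 and 14.16 in untreated pools, groups that touch without overlapping (log2 difference -0.22, 95% interval -0.66 to 0.22).

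In the list of retinaldehyde dehydrogenases and retinoid genes, which holds Aldh1a3, 9 of 14 genes were lower. The median was -0.10, with levels of -0.20, -0.12 and -0.23 in treated and -0.06, 0.07 and -0.07 in untreated pools. The members next to Aldh1a3 in p were largely near the floor. Rbp2, a retinol-binding protein, was at the floor in treated pools 1 and 2 and at 7.47 in pool 3, against the floor, 7.59 and 9.14 in untreated pools. Crabp1, a retinoic acid-binding protein, had 6.85, 7.43 and 6.77 in treated and 8.33, 7.92 and 6.77 in untreated pools. Aldh1a1, another retinaldehyde dehydrogenase, differed by 0.02 (95% interval -0.44 to 0.48).

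Antioxidant enzymes were higher in 14 of 19, with a median of 0.09, and no member lay below the untreated mean in all 3 treated pools, while 6 lay above it in all 3 (31.6%). The list stood at 0.10, 0.23 and 0.18 in treated and at -0.02, 0.03 and -0.03 in untreated pools. Gpx3, the secreted glutathione peroxidase, had 11.69, 11.60 and 12.06 in treated and 11.13, 10.89 and 11.46 in untreated pools, the 1 member without overlap (log2 difference 0.63, SE 0.21, adjusted p of 1 in limma). Gpx7, a peroxidase of the endoplasmic reticulum, had 7.98, 8.35 and 7.85 in treated pools and 7.88 in untreated pool 2, with untreated pools 1 and 3 at the floor. Gsr, glutathione reductase, had 10.72, 10.46 and 11.19 in treated and 10.42, 9.98 and 10.49 in untreated pools. Txn2, the mitochondrial thioredoxin, had 12.97, 13.26 and 13.29 in treated and 12.59, 12.89 and 13.10 in untreated pools. The median of the list lay above 0 in every setting.

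The superoxide dismutases, whose reaction the drug carries out, had differences close to 0. Sod1 of the cytosol differed by -0.04 (95% interval -0.64 to 0.56), Sod2 of mitochondria by -0.13 (-0.65 to 0.39) and Sod3 of the extracellular space by 0.05 (-0.72 to 0.82). Nrf2 targets and metallothioneins were higher in 21 of 33 (median 0.05) with overlap. Srxn1, sulfiredoxin, had 11.42, 11.67 and 12.00 in treated and 11.26, 11.49 and 11.24 in untreated pools. Hmox1, heme oxygenase 1, had 13.11, 12.82 and 12.57 in treated and 12.55, 12.68 and 13.53 in untreated pools, and the metallothionein Mt1 16.07, 16.15 and 16.49 in treated and 15.90, 16.12 and 16.16 in untreated pools. For Hmox1 the groups overlapped widely (95% interval of the difference -0.96 to 0.78). Sources of superoxide and nitric oxide had a median of -0.03 over 14 genes, and the inducible nitric oxide synthase Nos2 had 7.56, 7.85 and 7.06 in treated and 6.77, 7.79 and 8.52 in untreated pools.

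The classes with a median close to 0 included the heat shock response. Heat shock proteins and co-chaperones had a median of -0.01 over 42 genes, with 20 higher and 22 lower, and their levels lay between -0.07 and 0.04 in all 6 pools. Hspa1a, an inducible Hsp70, had 16.30, 16.25 and 16.26 in treated and 16.46, 16.26 and 16.46 in untreated pools, against 11.57 to 12.90 in drug control pools; its near-identical copy Hspa1b, from which the probes may not separate it, had 16.11, 15.75 and 15.96 in treated and 16.16, 15.79 and 16.25 in untreated pools. The inducible Hsp90 Hsp90aa1 differed by -0.02 (95% interval -0.41 to 0.38), Hspa8 by -0.02 (-0.43 to 0.39) and Hsph1 by -0.02 (-0.36 to 0.32). The intervals of these 3 lie within 0.5 log2 units of 0.

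The medians of the housekeeping, neuron and glia classes named in this paragraph lay within 0.06 of 0. The mitochondrial respiratory chain had a median of 0.01 over 63 genes, with Cox6a1 at -0.06 (95% interval -0.55 to 0.42). Cytosolic ribosomal proteins had -0.02 over 29 genes, with Rpl41 at -0.06 (-0.40 to 0.28), and proteasome and ubiquitin genes -0.04 over 41, with Psmb1 at 0.03 (-0.35 to 0.41). Pan-neuronal and synaptic genes had a median of 0.00 over 39 genes, and Snap25 differed by -0.06 (-0.49 to 0.37). Astrocyte genes had 0.04 over 23, with Apoe at 0.02 (-0.31 to 0.36), and oligodendrocyte genes -0.06 over 15, with Mbp at 0.08 (-0.35 to 0.51). Striatal genes, which mark the core of the territory, had -0.01 over 14, with the enkephalin precursor Penk at -0.11 (-0.66 to 0.45). In cortical and hippocampal neurons the median was -0.02 over 21 genes, 12 lower and 9 higher. The 2 members with an unadjusted p under 0.05 in limma were both lower, against 0.646% of all genes. Calb1, a calcium buffer, had 12.41, 12.50 and 11.80 in treated and 12.81, 12.87 and 12.71 in untreated pools, without overlap. Neurod6 had 8.25 to 9.35 in treated and 9.33 to 9.83 in untreated pools. Rprm was also lower, without overlap (-0.60). Neurod2, a transcription factor of cortical neurons, went the other way, with 12.61, 12.55 and 12.58 in treated and 12.15, 12.54 and 12.00 in untreated pools.

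Hypoxia and glycolysis genes were higher in 21 of 32 (median 0.06), and 7 of 32 lay above the untreated mean in all 3 treated pools (21.9%). Ldha, lactate dehydrogenase A, was the 1 member without overlap, with 14.89, 14.88 and 14.88 in treated and 14.70, 14.60 and 14.65 in untreated pools (log2 difference 0.23, 95% interval -0.12 to 0.58). Adm, adrenomedullin, had 8.42, 8.32 and 8.76 in treated and 8.49, 7.66 and 6.97 in untreated pools. Of 39 genes of cell death and the p53 response 26 were lower, but the median was -0.04. Cdkn1a, the p53-induced inhibitor of the cell cycle, differed by -0.07 (95% interval -0.77 to 0.63).

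A further set of genes was chosen for high signal in single treated brains, without the 6 arrays of the comparison. Between the 5 single treated brains and the drug control pools, 288 of 9907 probe sets (2.91%) were higher in the brains, and the set held the 12 largest of these differences. It is not a set of ischemia-induced genes, since 5 of the 12 were lower in untreated ischemic than in control pools, down to -2.59 for Zbtb17 and -1.34 for Ten1. Of these 12 genes 6 were lower in treated than in untreated ischemic pools, 3 of them in all 3 treated pools, 0 had groups without overlap, and the median difference was 0.08. Gadd45b, induced by growth arrest and DNA damage, had 10.74, 11.99 and 11.66 in treated and 11.33, 11.32 and 10.71 in untreated pools. Ccl4, a chemokine close to Ccl3, had 10.33, 10.66 and 10.59 in treated and 11.73, 10.95 and 9.94 in untreated pools. The choice used treated brains and no untreated ischemic brain, and the standard errors of the 12 ran from 0.43 to 1.39.

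Several of the 12 were high in the single brains and in treated pool 3 and low in the other treated pools. Zbtb17, a zinc finger partner of Myc, was at the floor in treated pools 1 and 2 and at 9.95 in treated pool 3, against 6.77, 7.44 and 6.77 in untreated pools, and lay between 9.70 and 11.41 in single brains. Ten1, a telomere-binding protein, had the same pattern, with the floor, the floor and 10.05 in treated pools, against 8.63, 7.04 and 6.77 in untreated pools, and 9.97 to 10.56 in single brains. Plekho1, a pleckstrin homology protein, had 6.77, 8.13 and 10.26 in treated pools and the floor in all untreated pools, with 9.79 to 10.82 in single brains. In these 3 genes treated pool 3 lay within the range of the single brains, and treated pools 1 and 2 lay below it. High values were not confined to these arrays. Control pools 1 and 2 had 10.57 and 11.40 for Zbtb17 and 9.10 and 10.58 for Ten1, and control pool 1 had 8.10 for Plekho1.

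The drug given without ischemia was compared in the same fit. Its mean difference uses none of the ischemic pools, but both drug comparisons take their spread from all 12 pooled arrays. Drug control pool 1 is titled with the drug but described as given saline. Drug control pools differed from control pools in 1 probe set, which was higher (0.00975%), and in 0 that were lower (0.0%), with 264 at an unadjusted p under 0.05 (2.57%). The called gene was Gfpt2, the first enzyme of the hexosamine pathway, with 10.69, 10.90 and 10.52 in drug control and 8.54, 8.68 and 8.56 in control pools (log2 difference 2.11, SE 0.23, limma adjusted p = 0.036). The call held in 2 of the other settings, a higher floor and a stricter filter (0.0349 and 0.0285), and in none of the others, where the adjusted p in limma was 0.056 to 0.939. Among these were the fits without any 1 of the 6 pools (0.0881 to 0.33) and with the replicate block (0.0952). In ischemic brain it had 10.58, 10.36 and 9.70 with the drug and 10.10, 10.33 and 10.37 without it, a difference of -0.05 (SE 0.23). The difference between these effects of the drug on Gfpt2 was -2.16 (SE 0.33, limma adjusted p = 0.307).

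The difference between the 2 drug effects, with ischemia minus without, was called by limma for 0 probe sets (0.0%), while 213 had an unadjusted p under 0.05 (2.08%). For Aldh1a3 it was -1.73 (SE 0.23, adjusted p = 0.155). Across the 10259 probe sets the 2 drug effects correlated with r = -0.0733, given as a description, since probe sets share arrays and the 2 contrasts share the estimate of spread. Of the 12 named genes that were higher with the drug after ischemia, 9 were also higher with the drug alone. These 9 ran from 0.03 for Nkiras2 and Cdc25c to 1.03 for Serpina1b and 1.36 for Creb1. Control pools 1 and 2 were at the floor for Creb1 and control pool 2 for Serpina1b. Acan (-1.34), Mrps5 (-0.18) and Arfgap3 (-0.05) went the other way. The share of all probe sets with the same sign in both comparisons was not counted. Of the 12 that were lower, 4 were lower with the drug alone, with values of -0.56 for Stk11, -0.30 for Pacrgl, -0.11 for Ahr and -0.02 for Abcd2. The 2 lists at the ends of the range were close to 0 there, with 0.01 for cytokines and chemokines and 0.06 for the interferon response, and antioxidant enzymes had -0.03.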

How the data were processed

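RNA of 17 mouse brain samples was measured on 1-colour arrays with 12488 probe sets, and the authors deposited 1 linear intensity per probe set and array, with 15.2% to 19.3% of an array's values below 0. The array software, with its background and scaling steps, is not given in the sources used here. The deposited intensities were multiplied to 1 trimmed mean of 2500 (2nd to 98th percentile), floored at their 25th percentile over pooled arrays (109.5) and turned into log2. The 66 array controls were left out, and the 10259 probe sets that exceeded the floor in 3 or more of the 12 pooled arrays were tested. Symbols came from the platform annotation: 10855 probe sets had 1, 396 several and 1237 none, and 10839 matched a current gene by Entrez number.

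The 12 pooled arrays were fitted together with limma 3.58.1 in R 4.3.3 (8 residual and 2.23 prior degrees of freedom), two-sided, with Benjamini-Hochberg adjustment over all probe sets tested and a threshold of 0.05. The procedure was tested on simulated data. Differences were added only to probe sets well above the floor, without a spread shared between arrays. The simulation therefore does not cover calls near the floor, such as Aldh1a3. Arrays carry no read depth, and their number, 3 per group, limits the precision. Lists used the brightest probe set of a gene. Members and lists were chosen with earlier results of these data known. Named were every gene past the threshold, the 12 largest differences each way with an unadjusted p under 0.05, all 6 pools above the floor and no overlap, members among the 4 smallest p values of each list, members among the 3 brightest of lists described as not moving, and the 12 called genes with the largest differences, without overlap, of single treated brains over drug control pools; any other gene named falls outside the rule, picked with its values in view. Groups come from titles. Scaling, floor, filter, block, fit and label alternatives and leaving out each pool were tried.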

Additional observations from a re-analysis of the deposited data

Results flagged for a closer look

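Aldh1a3 in the single treated brains stood out in 1 of 5 brains. It was 8.21 on the log2 scale in brain 12, while the other 4 lay between 6.77, the floor, and 6.95. The gap to the nearest brain was 0.876 of the whole range, above the 95% critical value of 0.71 for 5 samples. The value of brain 12 lies near those of the untreated ischemic pools (8.34 to 8.75), although that brain had been given the drug. Of the 6 sets of values examined in this way 1 stood out, and chance alone marks about 5% of groups of values without a floor. For Aldh1a3 only 2 of the 5 brains exceeded the floor, so neither that share nor the critical value can be relied on here. The reason was not tested.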

How the results depend on the processing

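For the drug after ischemia, the count of called probe sets was 1 in the reported fit and 0 with the floor at the 20th percentile, with the floor at the 40th percentile, with a signal above the floor required on 8 or more arrays, with only the 2 groups compared, with the 2 arrays of unlike labels left out, and when the descriptions set the groups. It was 0 to 0 when each of the 6 pools was left out in turn. It stayed at 1 with quantile normalization, arrays scaled to one median, no filter, the replicate block and the scale set as a block. Same-numbered treated and untreated ischemic pools had correlations of 0.059, 0.382 and -0.156 between their deviations, and the reported fit did not use the numbers. Across the 12 pooled arrays, however, the closest other pool mostly carried the same number. Untreated pools 1 and 3 were closest to control pools 1 and 3 (0.961 and 0.944), and control pool 2 and treated pool 3 were the exceptions. The numbers may thus mark a spread shared between groups that the reported fit ignores. With the replicate block 274 had an unadjusted p under 0.05, against 151. In the scale block the called gene was not Aldh1a3 (adjusted p = 0.152) but Tmem115, at the floor in treated pool 1 and at 10.36 and 10.93 in treated pools 2 and 3, against 10.26 to 10.76 in untreated pools, so this call rests on 1 pool. The log2 difference of Aldh1a3 ran from -2.27 to -1.29 over 12 settings, with an adjusted p under 0.05 in 4 of them and from 0.000219 to 1 over all.

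For the drug without ischemia, the count was 1 in the reported fit (Gfpt2) and 0 with quantile normalization, with arrays scaled to one median, with the floor at the 20th percentile, with no filter, with the replicate block, with only the 2 groups compared, with the 2 arrays of unlike labels left out and when the descriptions set the groups. Leaving out single pools gave 0 to 2. It was 2 without control pool 3, where Faf1 was higher and Fntb lower and 1084 probe sets had an unadjusted p under 0.05, against 264. The difference between the drug effects was called for 0 probe sets, except for 1 with no filter (Aldh1a3). Arrays scaled to one median shifted the median of all probe sets from 0.03 to -0.08 for the drug without ischemia and to 0.12 for the difference between the drug effects, against -0.04.

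Of the 35 lists 10 kept the sign of their median in every setting, and 5 of the 9 with a median of at least 0.1 in size did. Of 4196 values of named or listed genes 281 moved to the other side of 0, and none of these genes passed the test. The floor at the 10th percentile was not run, since that percentile (-139.1) has no log; the 20th was chosen after seeing the data. The fit of only the 2 groups compared could not be made for the difference between the drug effects. Signals near the floor limit Aldh1a3, Ccna2 and the other low transcripts.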
